A study of Mus musculus with 8 samples.

Results

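Enteroendocrine cells are the scattered hormone-producing cells of the gut epithelium. In colon assembloids, cultures that join epithelium and stroma, they were sought by their marker genes. A barcode of an assembloid epithelial library was taken when it held at least 500 detected genes, at most 10% of its unique molecular identifiers (UMIs) from mitochondrial genes, at least 1 UMI of the epithelial gene Epcam, and at least 1 UMI in 3 or more of Chga, Chgb, Neurod1, Fev, Insm1, Pcsk1 and Scgn. This rule found 113 barcodes, 57 in assembloid replicate 1 and 56 in assembloid replicate 2, of 77108 passing barcodes in the 8 libraries of the series. Since these 8 genes chose the cells, their levels are a description. The 7 markers stayed among the genes fitted, but no test of them is given as a result. The cells are called endocrine marker-positive cells here because part of those in replicate 1 lacked the other endocrine genes used below to check the label.

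The assembloids were made by placing organoids, grown from colon crypts of wild-type C57BL/6 mice, into Matrigel droplets that held colon stromal cells cultured beforehand. They were kept on an orbital shaker in medium lacking the Wnt surrogate, CHIR-99021, R-spondin 1 and noggin that organoid medium contains. The comparison group was epithelium freshly released from mouse colon as crypts, and organoid libraries held epithelium grown alone in the full medium. Each group had 2 libraries, made with the 10x Genomics 3′ kit from dissociated cells. The labels name neither the animals nor the cultures behind a replicate, so p-values measure only the spread between these libraries. Dissociation differed between the groups. Assembloids were digested with Liberase TL and DNase I and then TrypLE. Tissue crypts were released with EDTA and DTT before TrypLE, and organoids had TrypLE alone. The parts of culture and of dissociation in a difference between groups cannot be told apart. All groups came from mice with no engineered allele, and no agent was given beyond the media. The methods state that male mice were used, at an age range in weeks that is that of young adults. Both assembloid libraries came from the same kind of culture, with EGF, A83-01, N2 and B27 in the medium.

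Enteroendocrine cells arise from secretory progenitors in which the transcription factor Neurog3 is switched on briefly, followed by Neurod1, Insm1, Pax6 and other factors that set the hormone a cell makes. The colon holds mainly enterochromaffin cells, which make serotonin with the enzyme Tph1 and often the tachykinin Tac1, L cells, which make peptide YY, glucagon-like peptides from Gcg and Insl5, and fewer D cells, which make somatostatin. Their granules are filled by granins such as Chga, Chgb and Scg2 and are released by calcium-triggered fusion.

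Granin promoters are known for the cyclic AMP response element, an 8-base motif whose letters are TGACGTCA. It is shown for the 3 granin genes to which the results below return, 2 of them rule genes, in stretches of 30 bases of the RefSeq strand of build GRCm38.p6 with the motif, or its first 6 letters in Chga, in capitals.
Chgb, chr2:132781559-132781588, plus strand: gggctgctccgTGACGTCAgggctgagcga
Scg2, chr1:79440076-79440105, minus strand: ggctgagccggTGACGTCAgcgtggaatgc
Chga, chr12:102554886-102554915, plus strand: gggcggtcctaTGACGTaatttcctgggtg
The motif began 72 bases before the RefSeq start of Chgb, 68 before that of Scg2 and 44 before that of Chga. The Chgb and Scg2 stretches lie inside the longer gene extents that GENCODE M21 gives, chr2:132781278-132795079 and chr1:79434669-79440120, and the Chga stretch lies upstream of its gene. On either strand of 250 bases before the start, the 8 letters stood in 508 of 32851 RefSeq promoters (1.55%) and the first 6, which every full match also holds, in 2125 (6.47%). A match describes the sequence and no site use.

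Depth differed between libraries. The median passing barcode held 3468 UMIs in assembloid replicate 1 and 13260.5 in replicate 2, against 3444 and 3702 in the tissue libraries. The marker-positive cells held more, with medians of 9561, 15472.5, 9136 and 6231 UMIs in the same order and sums of 562923, 1077025, 550377 and 582094 UMIs over the cells of a library. A cell with more UMIs meets a marker rule more easily, and free RNA can supply single UMIs. Any 2 libraries shared at most 1.07% of the barcodes of the smaller one. Doublets were not removed.

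The label was checked with 11 endocrine genes that the rule did not use, among them the synaptic vesicle protein Syp, the granin Scg2, the peptide-trimming enzyme Cpe and the transcription factors Rfx6, Nkx2-2, Pax6 and Isl1. In assembloid replicate 2, 52 of 56 marker-positive cells held UMIs of 2 or more of these genes, with a median of 5.5 genes. In tissue, 46 of 46 and 72 of 73 did, with medians of 8 and 6. In assembloid replicate 1, 19 of 57 did, the median was 1, and 22 cells held none of the 11. By these 11 genes, the label held for nearly all cells of replicate 2 and for a minority of those of replicate 1. Among the other Epcam-positive barcodes, 0.372% and 0.753% in assembloids and 0.459% and 0.844% in tissue held 2 or more of them. A UMI of any of 8 hormone genes, also outside the rule, was found in 53 of 57 and 54 of 56 assembloid marker-positive cells. The other Epcam-positive barcodes of these libraries held such a UMI in 3672 of 27921 and 2030 of 7306. These hormone counts were not thinned to equal depth.

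**Figure D1:**
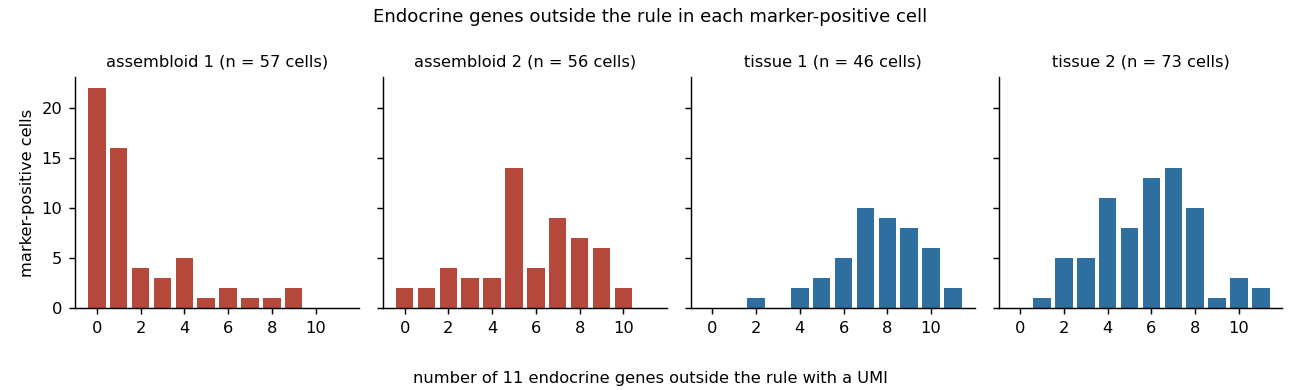
Number of the 11 endocrine genes outside the rule (x axis, 0 to 11) with at least 1 UMI, counted over the marker-positive cells (y axis, number of cells) of each assembloid and tissue library. Replicate 1 of the assembloids piles up at 0 and 1, where 38 of its 57 cells lie, while the other 3 libraries spread around medians of 5.5 to 8.

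The rule's own threshold ran through this difference. Cells with exactly 3 of the 7 markers numbered 41 in assembloid replicate 1, and 8 of them held 2 or more of the independent genes. In replicate 2 there were 13 such cells, and 9 did. Just outside the rule, with exactly 2 markers, lay 196 barcodes of replicate 1 with a median of 9 marker UMIs, 34 of which held 2 or more independent genes, and 61 of replicate 2 with a median of 2 marker UMIs, of which 9 did. The comparisons of all marker-positive cells were therefore also computed without replicate 1, and for the cells with at least 2 independent genes. Any fit without a library leaves 1 library in its group, so its p-values hold no spread within that group. The comparison of hormone classes was recomputed without replicate 1 but not for the cells with 2 such genes, which were too few in replicate 1.

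By the rule, marker-positive cells made a smaller share of the barcodes in assembloids than in tissue. They were 57 of 27978 Epcam-positive barcodes in assembloid replicate 1, a share of 0.204% (exact binomial 95% interval 0.154 to 0.264%), and 56 of 7362 in replicate 2, 0.761% (0.575 to 0.987%). The tissue libraries held 46 of 4399, 1.05% (0.767 to 1.39%), and 73 of 4100, 1.78% (1.40 to 2.23%). Organoid libraries held 8 of 4829 and 14 of 6554, 0.166% and 0.214%. Both assembloid shares lay below both tissue shares, and by this rule alone both organoid shares lay near that of assembloid replicate 1. The shares follow from the rule and carry no test. Their denominators come from the cell filter used here, which kept more assembloid and fewer tissue cells than the study states. With 2 libraries in each group, no exact permutation test could reach a p under 0.33.

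**Figure D2:**
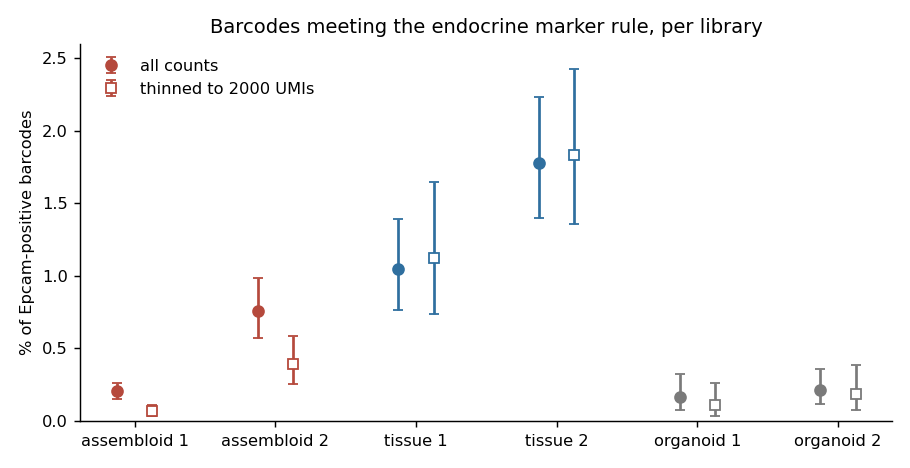
Share of Epcam-positive barcodes meeting the marker rule (y axis, %) in each assembloid, tissue and organoid library. Filled circles use all counts, open squares apply the rule after thinning each barcode of at least 2000 UMIs to that number, and bars are exact binomial 95% intervals that cover counting error only. The assembloid shares stay below the tissue shares with either choice.

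Barcodes under 2000 UMIs were left out and the others thinned to that number, which left 20800 and 6073 Epcam-positive barcodes in assembloids but 2308 and 2613 in tissue. Among these, the shares were 0.0673% and 0.395% in assembloids and 1.13% and 1.84% in tissue. With 2 or more independent genes required as well as the rule, they were 0.0679% and 0.706% in assembloids and 1.05% and 1.76% in tissue. Requiring 4 markers gave 0.0572% and 0.584% against 0.887% and 1.34%. With 2 markers in place of 3, the shares were 0.904% and 1.59% in assembloids and 1.55% and 3.66% in tissue. Both assembloid libraries lay below both tissue libraries in the first 3 of these, while with 2 markers assembloid replicate 2 lay just above tissue replicate 1. Assembloid replicate 1 was the lowest of the 4 in each. In organoids, the shares were 0.113% and 0.186% after thinning, 0.166% and 0.214% with 2 independent genes and 0.124% and 0.168% with 4 markers. All of these lay above assembloid replicate 1 by the same count, while with 2 markers the organoid shares, 0.352% and 0.351%, lay below it. Counted instead by at least 10 UMIs of Chga and Chgb together, the shares were 0.811% and 0.747% in assembloids and 0.978% and 1.85% in tissue, so that replicate 1 was no longer the lowest. Organoid shares by this count, 0.0828% and 0.168%, lay below both assembloid shares. Leaving out cells with 5 or more goblet or colonocyte UMIs, or with any of Ptprc or of 3 collagen genes, turned the order over, with 0.0608% and 0.244% in assembloids against 0 of 4399 and 0 of 4100 barcodes in tissue (exact upper bounds 0.084% and 0.09%).

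Between assembloids and tissue, UMIs summed over the marker-positive cells of each library were compared with the quasi-likelihood test of edgeR, with Benjamini-Hochberg adjustment over 7818 genes and n = 2 libraries a group. In such sums, fewer cells of a hormone type and less of its RNA per cell cannot be told apart. Of the genes tested, 16.1% were called higher in assembloids and 15.0% lower, with a median log2 fold change of -0.0029 over all genes tested. Gene lists are read against these shares. Levels are UMIs scaled to a total of 1000000 (CPM) over the summed cells, given for replicates 1 and 2 in that order, with assembloids before tissue wherever 2 pairs are joined by "against". Fold changes are log2 values of assembloids over tissue with their standard errors, on library sizes scaled by the trimmed mean of M values. On unscaled CPM the median gene was 0.462 lower in assembloids on the log2 scale and none of the called genes with UMIs in both groups had another sign there.

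The L cell hormones were lower in assembloids. Pyy, encoding the appetite-curbing peptide YY, was at 989 and 5635 CPM in assembloids and 31211 and 19992 CPM in tissue (log2 fold change -2.62 ± 0.77, adjusted p = 0.0251). Gcg, the precursor of the glucagon-like peptides, was at 16 and 277 CPM in assembloids and 7806 and 5305 CPM in tissue (log2 fold change -5.14 ± 0.93, adjusted p = 0.0026). Insl5, a hormone of distal L cells, was at 0 and 80.8 CPM in assembloids and 6937 and 5880.5 CPM in tissue (log2 fold change -6.88 ± 1.06, adjusted p = 0.00117). For all 3 genes both assembloid libraries lay below both tissue libraries. The assembloid values rested on few cells: Gcg was detected in 4 and 5 cells, Insl5 in 0 and 5, and Pyy in 18 and 22, and single cells of replicate 2 held 72.8% of its Gcg, 48.3% of its Insl5 and 49.4% of its Pyy UMIs. In tissue, Gcg was detected in 18 and 15 cells, Insl5 in 19 and 20 and Pyy in 33 and 35. Without assembloid replicate 1, the log2 fold changes were -1.88 for Pyy, -4.26 for Gcg and -6.00 for Insl5. Pyy lost its call without either tissue library (log2 fold change -2.23, adjusted p = 0.249 and log2 fold change -2.90, adjusted p = 0.171), and Gcg and Insl5 passed without each library in turn.

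The enterochromaffin genes did not follow a single direction. Tac1, the precursor of substance P, was at 671 and 1561 CPM in assembloids and 223 and 247 CPM in tissue and was higher in assembloids (log2 fold change 2.65 ± 0.41, adjusted p = 0.00122). Tph1, the first enzyme of serotonin synthesis, was at 313 and 735 CPM in assembloids and 943 and 1187 CPM in tissue (log2 fold change -0.62 ± 0.39, adjusted p = 0.255). Its levels in assembloids lay below those in tissue, and the difference did not pass the test. Ddc, the next enzyme of that synthesis, was at 135 and 244 CPM in assembloids and 1190.1 and 1515 CPM in tissue and was lower (log2 fold change -2.40 ± 0.38, adjusted p = 0.00134). Maoa, which degrades serotonin, was at 158 and 215 CPM in assembloids and 70.9 and 92.8 CPM in tissue and was higher (log2 fold change 1.64 ± 0.29, adjusted p = 0.00238). Slc18a1, which loads amines into vesicles, was at 65.7 and 139 CPM in assembloids and 187 and 215 CPM in tissue, with a log2 fold change of -0.53 ± 0.31 that did not pass (adjusted p = 0.21). Within each group, the Ddc values lay closer together than to those of the other group, and so did those of Maoa. Without tissue replicate 1, Maoa had an adjusted p of 0.0503, and without assembloid replicate 2, Tph1 passed as lower (log2 fold change -1.04, adjusted p = 0.000647).

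Cck, a gut hormone made mainly in the small intestine, was at 449 and 939 CPM in assembloids and 311 and 389.97 CPM in tissue and was higher in assembloids (log2 fold change 1.40 ± 0.37, adjusted p = 0.0159). That call was lost without either tissue library (log2 fold change 1.27, adjusted p = 0.286 and log2 fold change 1.58, adjusted p = 0.17) and with at most 5% mitochondrial UMIs (log2 fold change 0.53, adjusted p = 0.306). It was also spread over more cells, with a UMI in 30 of 57 and 42 of 56 assembloid cells against 8 of 46 and 12 of 73 tissue cells. In the cells with at least 2000 UMIs, thinned to that number (51 of 57 and 54 of 56 in assembloids, 46 of 46 and 72 of 73 in tissue), Cck was detected in 31.4% and 48.1% of the assembloid cells and in 6.52% and 12.5% of the tissue cells. The other Epcam-positive barcodes held it in 3.34% and 1.17% in assembloids and in 0.084% and 0.112% in tissue. Tac1 behaved alike, at 35.3% and 48.1% against 15.2% and 22.2% of thinned marker-positive cells.

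Sst, the hormone of D cells, gave no stable comparison. It was at 0 CPM in assembloid replicate 1 and at 1679 CPM in replicate 2, where 1 cell held 92.8% of the UMIs, against 1481 and 275 CPM in tissue (log2 fold change 0.21 ± 1.35, adjusted p = 0.925). Without replicate 1 the value was 1.24, and without replicate 2 it was -11.76. Secretin, Sct, was at 71.1 and 124 CPM in assembloids and 772 and 332 CPM in tissue and was lower (log2 fold change -2.06 ± 0.42, adjusted p = 0.0053). Without tissue replicate 1 its adjusted p was 0.0572. Adm, the vasodilator adrenomedullin, was at 123 and 106 CPM in assembloids and 1.82 and 0 CPM in tissue (log2 fold change 7.18 ± 0.66, adjusted p = 0.000102), and the other Epcam-positive barcodes of the same libraries held 151 and 146 CPM in assembloids and 1.69 and 2.63 in tissue, so its difference was not confined to the marker-positive cells.

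Of the 23 genes in the list of hormones and transmitter synthesis, 13 passed the filter on low counts, and of these 4 were called higher (Tac1, Cck, Adm and Maoa) and 5 lower (Gcg, Pyy, Insl5, Sct and Ddc), with a median of -0.53. Adm, near 0 in tissue, passed that filter through assembloids alone, which fixed its direction. Insl5, without a UMI in assembloid replicate 1, passed through tissue, so the counts describe only the genes that passed. Without assembloid replicate 1, 14 genes were tested, of which 6 were higher and 6 lower. Some hormone genes were found together in single cells. Of the cells with Tph1, 12 of 27 and 25 of 34 in assembloids also held Cck, against 0 of 15 and 0 of 44 in tissue. Tac1 was found in 21 of 27 and 29 of 34 of the assembloid cells with Tph1, against 8 of 15 and 22 of 44 in tissue. Of the cells with Pyy, 16 of 18 and 19 of 22 in assembloids and 8 of 33 and 12 of 35 in tissue held Cck. Tph1 and Pyy, of the enterochromaffin and the L cell, were found together in 3 of the 27 and 8 of the 34 cells with Tph1 in assembloids, against 5 of 15 and 12 of 44 in tissue. These counts were not thinned to equal depth and carry no test. Pyy was also more widespread outside the marker-positive cells of tissue. Thinned to 2000 UMIs, the other Epcam-positive barcodes held it in 8.95% and 12.7% in tissue and 0.756% and 2.24% in assembloids. The part of free RNA in the shared detection was not tested. Hormone detection also followed the number of rule markers: the median summed UMIs of 8 hormone genes was 5 at 3 markers in either assembloid library, and 35 and 104 at 5 markers.

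**Figure D3:**
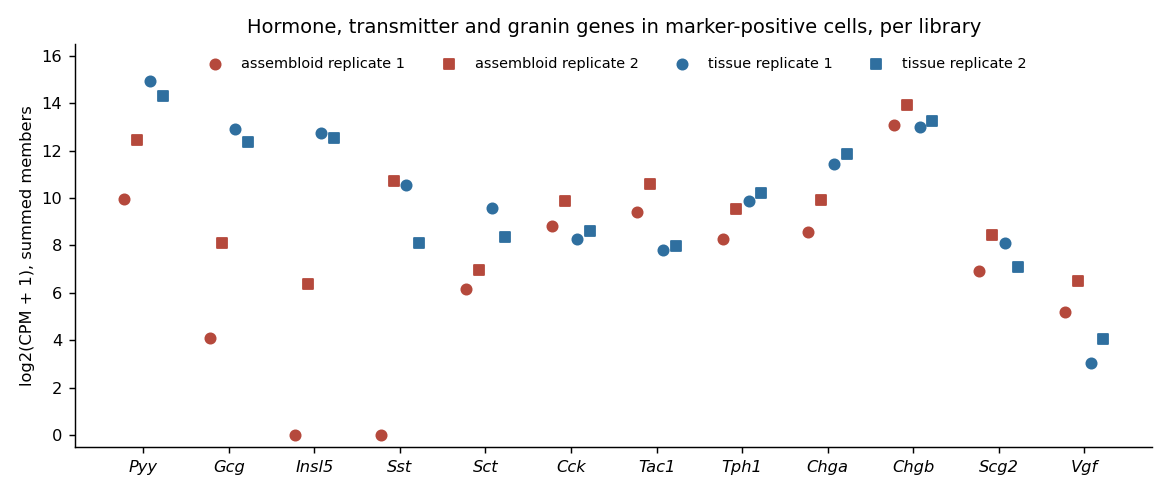
Levels of hormone and transmitter genes, as log2(CPM + 1) of UMIs summed over the marker-positive cells (y axis), in each assembloid and tissue library (points). Gcg, Insl5 and Pyy lie lower in both assembloid libraries than in either tissue library, Tac1 and Cck lie higher, and Sst is at 0 in assembloid replicate 1 only.

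Among genes of the shared secretory machinery, most that were called were lower in assembloids. Of 18 listed pan-endocrine genes outside the rule, 17 were tested, 10 were called lower and 1 higher, with a median log2 fold change of -1.36. Without replicate 1, 9 were lower and 3 higher. Pcsk1n, which restrains the hormone-cleaving enzyme Pcsk1, was at 48 and 129 CPM in assembloids and 883 and 663 CPM in tissue (log2 fold change -2.70 ± 0.41, adjusted p = 0.00103). Cpe, which trims cleaved hormones, was at 107 and 368 CPM in assembloids and 961 and 744 CPM in tissue (log2 fold change -1.46 ± 0.44, adjusted p = 0.0301), and Pam, which amidates them, at 247 and 521 CPM in assembloids and 1268 and 1366 CPM in tissue (log2 fold change -1.36 ± 0.38, adjusted p = 0.0208). The granule membrane protein Ptprn2 was at 247 and 467 against 3817 and 2817 CPM and the granule protein Resp18 at 24.9 and 45.5 against 439.7 and 369 CPM, with log2 fold changes of -2.79 and -3.05. In each of these 5 genes, both assembloid libraries lay below both tissue libraries. Calls were lost without either tissue library for Cpe (adjusted p = 0.172 and 0.0722) and for Pam (adjusted p = 0.192 and 0.214).

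The granins varied among themselves. Chgb, chosen by the rule, was at 8614 and 15351 CPM in assembloids and 8285 and 9617 CPM in tissue, highest in assembloid replicate 2. Chga, chosen too, was at 382 and 973 CPM in assembloids and 2731 and 3718 CPM in tissue, lower in both assembloid libraries. Scg2, which was not used in the choice and whose promoter stretch is printed above beside that of Chgb, was at 119 and 342 CPM in assembloids and 278 and 136 CPM in tissue, with overlapping groups (log2 fold change 0.56 ± 0.43, adjusted p = 0.344). Without replicate 1, which leaves 1 assembloid library, its log2 fold change was 1.03. Vgf, another granin-like precursor, was the 1 gene of the list called higher, at 35.5 and 90.1 CPM in assembloids and 7.27 and 15.5 CPM in tissue (log2 fold change 2.88 ± 0.49, adjusted p = 0.00196). Of the remaining rule genes, Scgn, a calcium sensor, was at 12.4 and 25.1 against 202 and 153 CPM, Neurod1 at 133 and 229 against 443 and 454 CPM and Pcsk1 at 115 and 171 against 187 and 131 CPM.

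Most tested transcription factors of the endocrine lineage were called lower in assembloids. Of 28 listed factors, 22 were tested, 17 were called lower, 1 higher (Neurog3) and 4 neither, with a median of -2.02. The counts were 17 and 1 of 24 tested without replicate 1. Egr3, without a UMI in assembloids, passed the filter on low counts through tissue alone, and other factors were near 0 in 1 group, so the counts describe only the factors that passed. Nkx2-2, a factor needed for most endocrine subtypes, was at 32 and 91.9 CPM in assembloids and 311 and 306 CPM in tissue (log2 fold change -1.86 ± 0.36, adjusted p = 0.00353). Rfx6, which maintains endocrine identity, was at 60.4 and 118 against 411 and 266 CPM (log2 fold change -1.48 ± 0.34, adjusted p = 0.00828), and Pax6, which activates hormone genes, at 17.8 and 39.9 against 145 and 72.2 CPM (log2 fold change -1.43 ± 0.42, adjusted p = 0.0255). Isl1, linked to the L cell branch, was at 10.7 and 33.4 against 287 and 117 CPM (log2 fold change -2.67 ± 0.49, adjusted p = 0.00284). Lmx1a, the enterochromaffin factor, was at 48 and 191 CPM in assembloids and 399.7 and 869 CPM in tissue (log2 fold change -2.0 ± 0.51, adjusted p = 0.0141). Calls were lost for Rfx6 and Pax6 without tissue replicate 1 and for Lmx1a without tissue replicate 2. Pax6 also lost its call with DESeq2 (adjusted p = 0.0702).

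Egr3, an activity-induced factor, had no UMI in the assembloid cells and 99.9 and 141 CPM in tissue. Taken against a floor of 3 counts over the group, it was at least 66.1-fold lower. Neurog3 was at 24.9 and 61.3 CPM in assembloids and 7.27 and 3.44 CPM in tissue (log2 fold change 3.44 ± 0.56, adjusted p = 0.00161), but its UMIs came from 1 cell in assembloid replicate 1 and 2 cells in replicate 2. Sox4, an early progenitor factor, was at 194 and 225 against 263 and 297 CPM, with a log2 fold change of 0.04 ± 0.29 (adjusted p = 0.929). With at most 5% mitochondrial UMIs its log2 fold change was -0.96 and passed as lower (adjusted p = 0.0496).

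The called genes of granule release and of electrical excitability were lower in assembloids when all 4 libraries were used. Several were near 0 there and passed the filter on low counts through their tissue values, so these counts describe only the genes that passed. Of 25 exocytosis genes, 17 were tested and 10 were called lower and 0 higher, with a median of -1.21, and without replicate 1 11 of 19 were lower and 1 higher. Cadps, which primes granules for fusion, was at 32 and 113 CPM in assembloids and 1001 and 897 CPM in tissue (log2 fold change -3.28 ± 0.45, adjusted p = 0.000677), and the fusion protein Snap25 at 71.1 and 279 against 479.7 and 766 CPM (log2 fold change -1.44 ± 0.47, adjusted p = 0.0387). Unc13a, a priming factor related in role, was at 42.6 and 86.3 against 49.1 and 49.8 CPM and did not pass (adjusted p = 0.0869). Without assembloid replicate 1, Unc13a passed as higher (log2 fold change 1.11 ± 0.31), and without tissue replicate 2, Snap25 did not pass (adjusted p = 0.201). Of 24 channels and transporters of excitability, 15 were tested and 13 were lower and 0 higher, with a median of -2.04, and without replicate 1 13 of 17 were lower. They included the potassium channel Kcnb2 at 384 and 573 against 3861 and 3231 CPM (log2 fold change -2.45 ± 0.43, adjusted p = 0.00221), the calcium channel subunit Cacnb2 at 3.55 and 16.7 against 347 and 306 CPM (log2 fold change -4.41 ± 0.42, adjusted p = 0.000113) and the mechanically gated channel Piezo2 at 103 and 13 against 1077 and 2347 CPM (log2 fold change -4.37 ± 0.85, adjusted p = 0.00399). The sugar transporter Slc5a1, which couples glucose uptake to release, was at 5.33 and 26.9 against 107 and 87.6 CPM.

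Of 28 receptors for nutrients and transmitters, 9 passed the filter on low counts. All 9 that passed were called lower, with a median of -2.43, against 8 of 10 without replicate 1. Because assembloid levels of several receptors were at or near 0, a receptor passed that filter largely through its tissue counts, and these counts describe only the genes that passed. The short-chain fatty acid receptor Ffar2 was at 32 and 61.3 CPM in assembloids and 142 and 120.3 CPM in tissue (log2 fold change -1.03 ± 0.31, adjusted p = 0.0297), and Olfr78, a receptor for the same class of metabolites, at 10.7 and 87.3 against 262 and 389.97 CPM (log2 fold change -2.26 ± 0.53, adjusted p = 0.00966). The angiotensin receptor Agtr1a was at 0 and 2.79 against 219.8 and 122 CPM (log2 fold change -6.06 ± 0.62, adjusted p = 0.000135). The acylethanolamide receptor Gpr119 was at 1.78 and 0.928 against 23.6 and 32.6 CPM and the vasopressin receptor Avpr1b at 1.78 and 3.71 against 111 and 58.4 CPM. The assembloid libraries lay below the tissue libraries for each of these. Ffar2 lost its call without either tissue library and with DESeq2 (adjusted p = 0.235, 0.0943 and 0.157), and Gpr119 without tissue replicate 2 (adjusted p = 0.123).

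Genes called lower were also long. The median genomic span in GENCODE M21 was 31.8 kb over all genes tested, 81.9 kb over genes called lower and 13.9 kb over genes called higher, and 25% of those called lower but 1.67% of those called higher spanned over 200 kb. In the transcription factor list, 9 of 13 genes at or under the median span and 8 of 9 longer ones were lower. In the exocytosis list, 1 of 5 and 9 of 12 were, and of the channels 0 of 1 and 13 of 14. Among pan-endocrine genes, 5 of 10 and 5 of 7 were lower, and among receptors 7 of 7 and 2 of 2. The epithelial libraries were counted with Cell Ranger 7.1.0, whose default includes intronic reads. Whether that default was used is not given in the sources used here, and the part of gene length in these results was not tested.

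**Figure D4:**
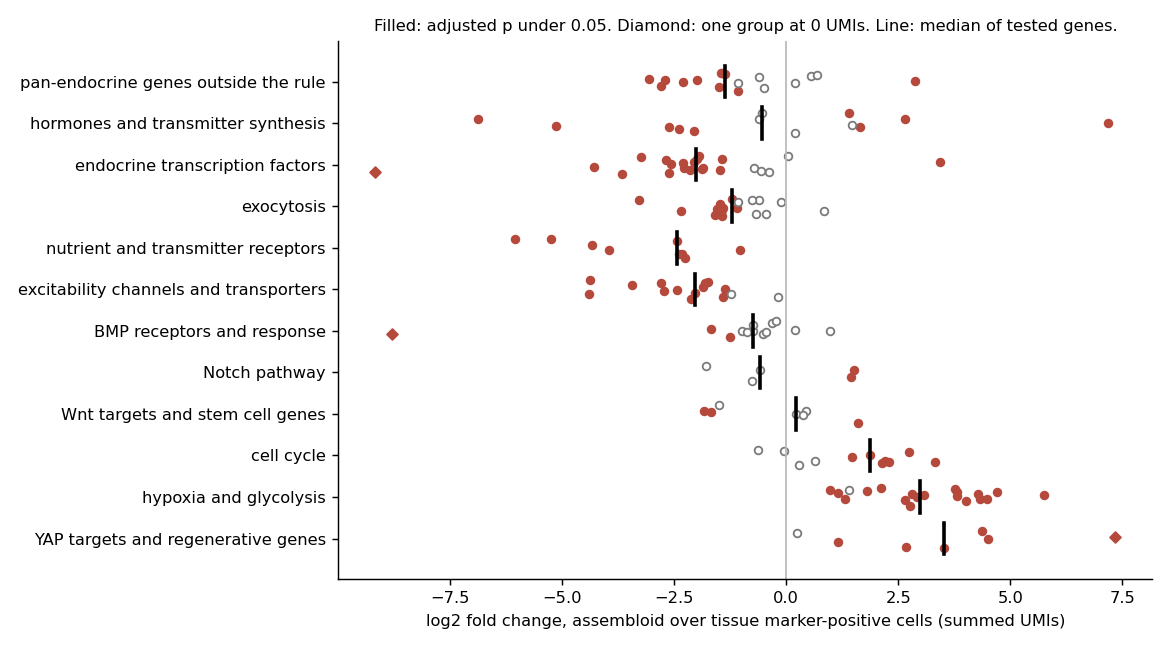
Log2 fold changes of assembloid over tissue marker-positive cells (x axis) for the tested genes of 12 lists (rows), with filled points at an adjusted p under 0.05 in edgeR, diamonds where one group had 0 UMIs and a line at each list's median. The endocrine machinery lies mostly left of 0 and the list of hypoxia and glycolysis right of it.

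Genes of the signals that steer secretory differentiation were called in both directions. In the Notch list of 14 genes, 5 were tested, and 2 were higher: the target Hes1 at 64 and 42.7 against 21.8 and 30.9 CPM (log2 fold change 1.46 ± 0.44, adjusted p = 0.0285) and the pathway's DNA-binding factor Rbpj at 97.7 and 70.6 against 40 and 41.2 CPM (log2 fold change 1.51 ± 0.38, adjusted p = 0.0127). Hes1 lost its call without assembloid replicate 1, without tissue replicate 1 and with DESeq2 (adjusted p = 0.0851 with DESeq2). In the list of BMP receptors and response, 13 of 22 genes were tested and 3 were lower, a share not far from that over all genes. They were the response genes Id1 at 58.6 and 61.3 against 122 and 273 CPM (log2 fold change -1.26 ± 0.39, adjusted p = 0.0306) and Id2 at 17.8 and 47.4 against 72.7 and 219.9 CPM (log2 fold change -1.68 ± 0.50, adjusted p = 0.0272), and the receptor Bmpr1b, which had no UMI in assembloid cells against 74.5 and 112 CPM in tissue and was at least 51.2-fold lower. Without tissue replicate 2, Id1 and Id2 did not pass (log2 fold change -0.55, adjusted p = 0.466 and log2 fold change -0.69, adjusted p = 0.388). With DESeq2, Id1 lost its call as well (adjusted p = 0.0871). Bmpr1b passed the filter on low counts through tissue alone, which fixed its direction. In the list of Wnt targets and stem cell genes, 7 of 16 were tested, with 2 lower (Lgr5 and Znrf3) and 1 higher (Slc12a2). Lgr5 was at 3.55 and 8.36 against 20 and 36.1 CPM, a level of few UMIs in any library. It lost its call without any 1 of the 4 libraries and with DESeq2, while Znrf3 and Slc12a2 lost theirs without tissue replicate 1.

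Several cell cycle genes were called higher in the assembloid cells. Of 20 listed genes, 11 were tested and 7 were called higher and 0 lower, with a median of 1.88. The proliferation marker Mki67 was at 51.5 and 48.3 CPM in assembloids and 14.5 and 34.4 CPM in tissue (log2 fold change 1.46 ± 0.44, adjusted p = 0.0283) and the mitotic ubiquitin carrier Ube2c at 117 and 48.3 against 5.45 and 17.2 CPM (log2 fold change 3.32 ± 0.66, adjusted p = 0.00431). A UMI of Mki67 or Top2a was found in 36 of 57 and 24 of 56 assembloid cells and in 6 of 46 and 13 of 73 tissue cells. After thinning to 2000 UMIs, Mki67 was detected in 13.7% and 5.56% of assembloid and in 4.35% and 5.56% of tissue marker-positive cells, so that shares at matched depth overlapped. The other Epcam-positive barcodes showed 15.4% and 12.1% in assembloids and 11.1% and 9.82% in tissue. Among cells with at least 2 independent genes, 5 of 9 tested cell cycle genes were higher, and Mki67 did not pass (adjusted p = 0.139). Mki67 also lost its call without tissue replicate 1 and with DESeq2 (adjusted p = 0.228 and 0.0979).

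Genes of hypoxia and glycolysis were nearly all higher in assembloids. All 20 were tested and 19 were called higher, the exception being Pfkfb3 (30.2 and 26 against 20 and 8.59 CPM, adjusted p = 0.0571), with a median of 2.99. The count was 19 without replicate 1 and 18 among cells with 2 or more independent genes. Bnip3, a mitochondrial hypoxia target, was at 346 and 294 CPM in assembloids and 21.8 and 22.3 CPM in tissue (log2 fold change 4.34 ± 0.38, adjusted p = 9.26e-05). Egln3, an oxygen sensor that is itself induced by hypoxia, was at 162 and 199 against 5.45 and 3.44 CPM (log2 fold change 5.74 ± 0.42, adjusted p = 4.86e-05), and the lactate-producing enzyme Ldha at 1363 and 1181 against 125 and 131 CPM (log2 fold change 3.81 ± 0.42, adjusted p = 0.000196). For these genes, the 2 assembloid libraries lay close together and far above tissue. The other Epcam-positive barcodes of assembloids held 1467 and 1638 CPM of Ldha against 455 and 551 in tissue, so the direction was shared with the rest of the epithelium.

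Of 17 genes known as YAP targets or as marks of regenerating epithelium, 7 were tested and 6 were higher, with a median of 3.53, or 3.24 with a gene at 0 in tissue set at its bound. That gene, Ereg, passed the filter on low counts through assembloids alone, which fixed its direction. Anxa1, a regeneration marker, was at 239.8 and 225 against 9.09 and 18.9 CPM (log2 fold change 4.50 ± 0.41, adjusted p = 9.43e-05) and Areg, an EGF receptor ligand, at 346 and 280.4 against 20 and 22.3 CPM (log2 fold change 4.37 ± 0.39, adjusted p = 9.26e-05). Of 20 genes of antigen presentation and interferon response, 7 were tested and 5 were higher, among them Ly6c1, which passed the filter in the same way. The stem and progenitor surface protein Ly6a was at 799 and 467 CPM in assembloids and 9.09 and 10.3 CPM in tissue (log2 fold change 6.53 ± 0.57, adjusted p = 9.12e-05), and its relative Ly6c1, without a UMI in tissue cells, was at least 37.8-fold higher. Each group was tight for Ly6a relative to the gap between them. The class I gene H2-K1 was at 281 and 377 against 211 and 275 CPM (log2 fold change 0.89 ± 0.31, adjusted p = 0.0471), a call lost without either tissue library and with DESeq2 (adjusted p = 0.476, 0.237 and 0.117).

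Markers of other cell types were also found in the marker-positive cells. The summed level of 12 goblet genes was 4221 and 2001 CPM in assembloids and 6227 and 4353 CPM in tissue, while the other Epcam-positive barcodes held 2543 and 4762 CPM in assembloids and 24488 and 27519 CPM in tissue. Of these genes, 9 were tested in the marker-positive cells, with 5 lower (Muc2, Clca1, Zg16, Klk1 and Guca2a) and 1 higher (Tff3). Without tissue replicate 1, neither Muc2 nor Tff3 passed, and without tissue replicate 2, Tff3 did not. Muc2 also lost its call with DESeq2 (adjusted p = 0.247). The 10 fibroblast genes summed to 547 and 707 CPM in assembloids and 144 and 63.6 CPM in tissue, and at least 1 UMI of them was found in 40 of 57 and 43 of 56 assembloid cells and in 12 of 46 and 17 of 73 tissue cells. In tissue, 9 of the 10 were at 0, and the whole sum was Vim. Of the 7 fibroblast genes tested, 6 had no UMI in tissue and so passed the filter on low counts through assembloids alone, which fixed their direction. In all, 6 were called higher, Dcn at least 51.6-fold and Col3a1 at least 34.1-fold among them. The other Epcam-positive barcodes held 740.2 and 962 CPM in assembloids and 3.12 and 1.47 CPM in tissue. The 12 colonocyte genes summed to 2586 and 1251 CPM in assembloids and 1225 and 1648 CPM in tissue, the 12 tuft genes to 5.33 and 2.79 CPM in assembloids and 25.4 and 13.7 CPM in tissue, and the 13 genes of enteric neurons and glia to 56.9 and 197 CPM in assembloids and 447 and 464 CPM in tissue. The other Epcam-positive barcodes held these neuron and glia genes at 24.9 and 35.5 CPM in assembloids and 3.40 and 3.19 CPM in tissue. They were thus higher in the marker-positive cells of every library. The 12 macrophage and lymphocyte genes summed to 48.0 and 25.1 CPM in assembloids, in 18 of 57 and 20 of 56 cells, and to 7.27 and 5.15 CPM in tissue, in 4 of 46 and 3 of 73 cells, while the other Epcam-positive barcodes held 215 and 483 CPM in assembloids and 20.9 and 10.0 CPM in tissue. The part of these other cell types in the differences above was not tested, and requiring fewer than 5 goblet or colonocyte UMIs left 0 tissue cells.

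The marker-positive cells were divided by their hormones into an enterochromaffin (EC) class, led by Tph1 and Tac1, and an L class, led by Gcg, Pyy and Insl5, where the leading sum had at least 3 UMIs and at least 3 times each other sum. The EC class held 22 and 30 cells in assembloids and 15 and 41 in tissue, and the L class 16 and 9 in assembloids and 19 and 17 in tissue. A D class led by Sst held 0 and 1 against 4 and 2 cells. Another 19 and 12 assembloid cells and 5 and 12 tissue cells had too few hormone UMIs, and the rest were mixed. As a fraction of the marker-positive cells, the EC class ranged from 32.6% to 56.2% over the 4 libraries and the L class from 16.1% to 41.3%, with overlap between the groups. These classes are cut from counts, so their leading genes are no findings. Since 10 cells of a class were required in both assembloid libraries, the test in assembloids was made with a leading sum of 2 times each other sum, which gave 22 and 30 EC and 16 and 10 L cells in assembloids and 16 and 41 EC and 19 and 17 L cells in tissue. Of these, 12 of 22 EC and 5 of 16 L cells of assembloid replicate 1 held 2 or more independent endocrine genes, against 29 of 30 and 10 of 10 in replicate 2 and every cell in tissue.

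In the L class, Pyy was at 4819.9 and 34955 CPM in assembloids and 64645 and 67459 in tissue, Gcg at 79 and 1919 against 16439.97 and 17890.3, and Insl5 at 0 and 560.4 against 14617 and 19874. The L class of assembloid replicate 2 also held Tac1 at 1945 CPM and Tph1 at 683 CPM, each in 4 of its 10 cells. That of replicate 1 held 0 CPM of Tac1 and 8.78 CPM of Tph1, and the tissue L classes held no Tph1. With a leading sum of 3 times each other sum, the L class of replicate 2 held 9 cells and 120110 UMIs, against 10 and 155256 at 2 times. In the EC class, Tph1 was at 685 and 1089 CPM in assembloids and 2521 and 2044 in tissue, and Tac1 at 1488 and 2039 against 588 and 413. As these genes set the classes, their levels within them are a description and no support for the comparison of all cells.

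Between the EC and L classes, 130 of 5498 genes (2.36%) were called in assembloids, 77 higher in the EC class and 53 lower, and for 141 genes (2.56%) the EC to L difference itself differed between assembloids and tissue. Cck was not found in the EC class of tissue, at 0 CPM in both EC classes and 639.7 and 1297 in the L classes, where it was at least 163-fold higher. In assembloids it was at 309.9 and 324 CPM in the EC and 1449 and 3201 in the L class (EC over L -2.65 ± 0.26, adjusted p = 8.66e-09). The difference between the groups was 8.38 ± 0.84, adjusted p = 2.4e-08, a value that depends on how a level of 0 is treated. In assembloids, 10 of 22 and 20 of 30 EC cells held a UMI of Cck, against 0 of 16 and 0 of 41 in tissue. In the L class, 14 of 16 and 9 of 10 assembloid cells held one, against 6 of 19 and 10 of 17 in tissue. Without assembloid replicate 1 the difference was 8.04 ± 0.79.

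Scg2 was likewise an L class gene in tissue, at 9.72 and 2.97 CPM in the EC and 571 and 448 in the L class. In assembloids, the EC class held 159 and 248 and the L class 167 and 973 CPM (EC over L -1.13 ± 0.35, adjusted p = 0.0953). The difference between the groups was 5.35 ± 0.71, adjusted p = 8e-06, and 4.65 ± 0.65 without assembloid replicate 1. Chgb, its neighbour in the sequences above and used by the rule, was at 19034 and 15186 CPM in the EC against 1107 and 861 in the L class of tissue, and at 16004 and 18452 against 5672 and 25912 in assembloids. As Chgb helped to choose the cells, its levels are a description. For Scg2, the EC over L value in assembloids was -1.87 without assembloid replicate 1 and 0.25 without replicate 2, each from 1 assembloid library.

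For 3 genes high in the EC class of tissue, Lmx1a, Slc18a1 and Slc38a11, the difference between the classes was smaller in assembloids, where their level was lower in the EC class and higher in the L class than in tissue. The L class of assembloid replicate 2 also held Tph1 and Tac1, and the part of such cells in these L class levels was not tested. Rab3c and Dlg2, also high in the EC class of tissue, showed no called difference between groups (adjusted p = 0.264 and 0.275). Lmx1a was at 967 and 1194 CPM in the EC and 11.5 and 11.6 in the L class of tissue, and at 89.7 and 306 against 43.9 and 122 in assembloids (EC over L 1.35 ± 0.37, adjusted p = 0.0439, difference between groups -4.97 ± 0.63, adjusted p = 3.79e-06). The call within assembloids was lost with DESeq2 (adjusted p = 0.999) and without assembloid replicate 2 (0.523), tissue replicate 1 (0.143) or tissue replicate 2 (0.0707), while the difference between groups passed in each. The amine transporter Slc18a1 showed a difference between groups of -4.30 ± 0.70, adjusted p = 0.000193, and the amino acid transporter Slc38a11 of -6.59 ± 0.95, adjusted p = 3.16e-05. The latter was not called without assembloid replicate 2 (adjusted p = 0.501). Piezo2 reversed, at 2259 and 3895 CPM in the EC and 53.6 and 139.6 in the L class of tissue but 16.3 and 3.3 in the EC and 474 and 58 in the L class of assembloids (difference -9.26 ± 0.49, adjusted p = 1.03e-15). Its assembloid UMIs came from 2 and 1 EC cells and 3 and 2 L cells.

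Isl1 kept to the L class in both groups, at 0 and 1.65 CPM in the EC against 52.7 and 167 in the L class of assembloids (EC over L -6.32 ± 0.79, adjusted p = 2.96e-06) and at 0 and 0 against 329 and 372 in tissue. Its difference between groups did not pass (3.16 ± 2.15, adjusted p = 0.607). The L class factor Etv1 was at 102 and 144 against 325 and 567 in assembloids (EC over L -1.71 ± 0.31, adjusted p = 0.000946) and at 43.7 and 53.5 against 724 and 721 in tissue, a difference between groups of 2.30 ± 0.46, adjusted p = 0.00227. That difference lost its call with DESeq2 (adjusted p = 0.0941) and without tissue replicate 1 (adjusted p = 0.15), and without assembloid replicate 2 neither Isl1 nor Etv1 passed within assembloids (adjusted p = 0.0569 and 0.14).

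**Figure D5:**
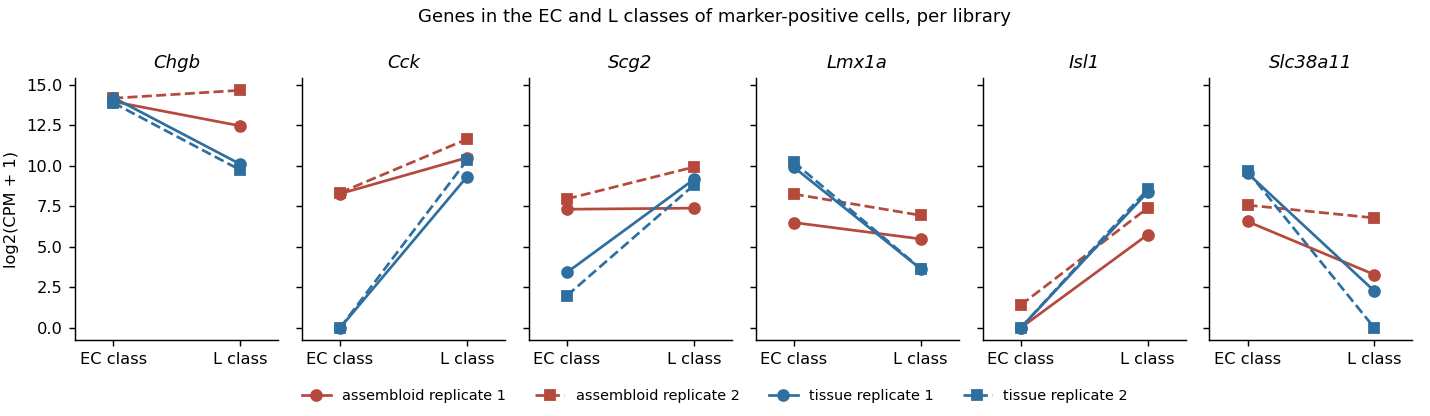
Levels of 6 genes as log2(CPM + 1) (y axis) in the EC and the L class of marker-positive cells (x axis), with a line for each assembloid and tissue library. In tissue Cck and Scg2 rise steeply from EC to L while Lmx1a, Slc38a11 and Chgb fall. In assembloids these lines are flatter, and that of Chgb falls in replicate 1 but rises in replicate 2. Isl1 rises in all 4 libraries.

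To set the marker-positive cells against the epithelium around them, their log2 ratio to the other Epcam-positive barcodes of the same library was compared between assembloids and tissue. Of 16926 genes, 7.33% had a higher and 6.27% a lower ratio in assembloids, and the median difference over all genes was 0.0495. In all, 1240 genes were higher and 1062 lower, against 633 and 812 with DESeq2. Of 18 pan-endocrine genes tested, 2 were higher and 7 lower. For 27 transcription factors these counts were 2 and 7, for 21 channels 1 and 11, and for 20 hypoxia and glycolysis genes 9 and 5. Hypoxia genes thus went in both directions relative to the other epithelium, with Bnip3 at -2.22 ± 0.39, adjusted p = 5.16e-07 and Ldha at 1.84 ± 0.31, adjusted p = 2.44e-07. The call for Ldha was lost after thinning and without tissue replicate 2. Of 12 goblet genes, 8 had a higher ratio in assembloids. The test draws its estimate of the spread from all genes, so its p-values are small beside a spread between only 2 libraries a group, and the ratio of each library is given for the genes below.

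The log2 ratio of Cck was 4.33 and 6.68 in assembloids and 9.29 and 9.53 in tissue, lower in assembloids (-3.71 ± 0.32, adjusted p = 3.1e-28) but further apart between the assembloid libraries than the standard error. There the other barcodes held 22.3 and 9.16 CPM against 0.498 and 0.527 in tissue. The log2 ratio of Tac1 was 6.25 and 7.78 in assembloids and 5.43 and 5.63 in tissue (1.65 ± 0.28, adjusted p = 2.2e-07). That of Gcg was 5.54 and 8.36 in assembloids and 9.82 and 9.19 in tissue (-1.86 ± 0.36, adjusted p = 5.61e-06), with an adjusted p of 0.236 with DESeq2. After thinning, the Gcg difference was 0.029, with the sign turned and no call. It was -0.90 and -3.75 without assembloid replicates 1 and 2, and -1.58 and -2.23 without tissue replicates 1 and 2. Among the genes with the largest changes of ratio, Reg4, a secreted lectin of the secretory lineage, was at 382 and 751 against 1156 and 294 CPM in marker-positive cells but at 10.2 and 29.1 against 759.7 and 819 CPM in the others (5.49 ± 0.30, adjusted p = 6.26e-72). Hepacam2, an adhesion gene of the same lineage, was at 142 and 223 against 531 and 510.2 CPM in marker-positive cells and at 3.7 and 9.24 against 181 and 170.4 in the others (3.48 ± 0.27, adjusted p = 9.86e-35). At the other end, the tight junction gene Cldn4 was at 195 and 283 against 176 and 131 CPM in marker-positive cells and at 211 and 279 against 4.78 and 6.49 in the others (-4.66 ± 0.29, adjusted p = 5.24e-56). Reg4 and Hepacam2 thus marked these cells more sharply in assembloids, while the Cldn4 level of marker-positive and other cells was alike in assembloids and far apart in tissue.

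Of the 7818 genes tested in the direct comparison, 1406 were called with groups that did not overlap and a mean log2 CPM of 5 or more. This count includes list genes and leaves out rule, mitochondrial, ribosomal and immunoglobulin genes. Those with the largest increases included Ly6a, the transcript Gm29585 at 624 and 523 against 7.27 and 6.87 CPM (log2 fold change 6.80 ± 0.49, adjusted p = 4.86e-05), the chemokine receptor gene Cx3cr1 at 243 and 222 against 3.63 and 6.87 CPM (log2 fold change 5.88 ± 0.45, adjusted p = 5.44e-05) and the translation repressor Eif4ebp1 at 377 and 228 against 1.82 and 18.9 CPM (log2 fold change 5.33 ± 0.64, adjusted p = 0.000304). Higd1a, a hypoxia-inducible mitochondrial gene, was at 1577 and 778 against 54.5 and 92.8 CPM (log2 fold change 4.54 ± 0.57, adjusted p = 0.000396). In each, the other Epcam-positive barcodes were also higher in assembloids, with Cx3cr1 for example at 222 and 147 against 5.09 and 4.27 CPM. Ly6a, Gm29585 and Cx3cr1 had at most 6 UMIs in either tissue library. They passed the filter on low counts through assembloids alone, which fixed their direction.

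Those with the largest decreases, beside Insl5, included the axon guidance receptor Robo2 at 5.33 and 6.5 against 391 and 503 CPM (log2 fold change -5.76 ± 0.40, adjusted p = 4.86e-05), the adhesion gene Negr1 at 0 and 16.7 against 759 and 1474 CPM (log2 fold change -6.40 ± 0.72, adjusted p = 0.000213), the synaptic scaffold Dlgap2 at 3.55 and 8.36 against 545 and 235 CPM (log2 fold change -5.47 ± 0.55, adjusted p = 0.000127) and Kcnmb2 at 3.55 and 6.5 against 743 and 385 CPM (log2 fold change -6.27 ± 0.52, adjusted p = 6.73e-05). Klf2, a shear- and quiescence-linked factor, was at 8.88 and 9.29 against 456 and 584 CPM (log2 fold change -5.39 ± 0.39, adjusted p = 4.86e-05). Sycn, a secretory granule protein, was at 5.33 and 3.71 against 311 and 359 CPM, but the other Epcam-positive barcodes of tissue held 2538 and 2502 CPM, more than the marker-positive cells did. Dlgap2, Negr1 and Kcnmb2, by contrast, were at most 5.15 CPM in the other barcodes of any of the 4 libraries. Robo2, Negr1, Dlgap2, Kcnmb2, Klf2 and Sycn had at most 18 UMIs in either assembloid library. They passed the filter on low counts through tissue alone, which fixed their direction.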

How the data were processed

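Single-cell libraries were made with the 10x Genomics 3′ v3 kit. Per the file headers, the deposited values are raw UMI counts for each gene in each barcode, made by the authors with Cell Ranger 6.0.1 (stroma) and 7.1.0 (epithelium), while the submitters' processing notes name Cell Ranger 6 and build mm10. No normalization had been applied. The members and gene lists were chosen with earlier results of these data known. Of the deposited barcodes, the cell filter kept 37132 of 46944 in assembloid epithelium and 9002 of 29111 in tissue epithelium, which is more assembloid and fewer tissue cells than the study states. UMIs were summed over marker-positive cells per library and tested with edgeR 4.0.16 in R 4.3.3 (filterByExpr, TMM, quasi-likelihood F test, two-sided, Benjamini-Hochberg at 0.05). The ratio to other Epcam-positive barcodes and the EC and L classes were tested with 1 term per library, and sums of fewer than 10 cells were left out. The alternatives were DESeq2 1.42.0, other cell filters and marker rules, thinning to 2000 UMIs and leaving out libraries. List genes were named freely, and beyond them the 8 highest and 8 lowest called genes of a comparison whose mean log2 CPM reached 5 and whose groups did not overlap could be named. Exact binomial intervals are at 95% and, like the floor of 3 counts, cover counting error only. The fits were tested on simulated data with a common spread for all genes and 200 genes changed 4-fold. The direct comparison recovered 78.5% of these, the ratio to other barcodes 35.0% and the classes within assembloids 70.0%. False calls numbered 5, 1 and 5. Positions are from GENCODE M21 (GRCm38) and promoters from RefSeq.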

Additional observations from a re-analysis of the deposited data

Results flagged for a closer look

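The ratio of marker-positive cells to the other Epcam-positive barcodes differed between assembloids and tissue for 2302 genes. Among the hormones, the log2 difference was -3.71 for Cck, 1.65 for Tac1 and -1.86 for Gcg. The Gcg value was 0.029 after thinning and was not called there or with DESeq2. The EC to L class difference was also unlike between the groups, by 8.38 for Cck, 5.35 for Scg2, -4.97 for Lmx1a and -9.26 for Piezo2 on the log2 scale, each by the test of the difference itself. The Cck value rests on a tissue EC class at 0 and on the treatment of that 0, and the Piezo2 value on few assembloid cells. The L class of assembloid replicate 2, used for all of these values, also held Tph1 and Tac1.

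Outside the rule, 185 Epcam-positive barcodes of assembloid replicate 1 held at least 10 UMIs of Chga and Chgb together, against 6 in replicate 2 and 6 and 12 in tissue. Their median depth was 3440 UMIs, and 115 of them held Tac1, 66 Tph1, 52 Cck and 50 Scg2. With the 42 members that held as many, they made 0.811% of the Epcam-positive barcodes of replicate 1, against 0.747% in replicate 2 and 0.978% and 1.85% in tissue. Such barcodes outnumbered the 57 that met the rule in that library. The assembloid stromal libraries, which no comparison used, held 4 barcodes that met the rule in library 1 and 0 in library 2. All 4 held 2 or more of the independent endocrine genes, as did 14.9% of the other Epcam-positive barcodes of that library, and they held fibroblast genes at 6942 CPM. In the organoid libraries, the 8 and 14 marker-positive cells held Neurog3 at 833.3 and 508.5 CPM, in 7 and 9 cells, while in assembloids it was at 24.9 and 61.3 CPM in 1 and 2 cells. The organoid cells were not tested.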

How the results depend on the processing

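The numbers of genes called, at an adjusted p under 0.05, changed with the tool, with depth, with the marker rule and with single libraries. Between assembloid and tissue marker-positive cells, where 2430 genes were called, there were 1434 with DESeq2, 608 after thinning, 1513 in EC cells alone, 3457 with 2 markers, 1936 with 4 and 1355 to 3309 without each library, and leaving out a tissue library gave the lowest numbers. With a replicate block there were 2604 (1358 higher). Same-numbered libraries did not deviate together (r = -0.034 across genes). With 2 libraries a group, this cannot show whether the numbers pair samples, and the labels state no pairing. For the ratio to other barcodes, 2302 became 1445 with DESeq2, 325 after thinning and 1029 to 2354 without each library. The median difference over all genes there moved by -0.174 with DESeq2, -0.202 after thinning, 0.207 with 2 markers, and 0.13 and -0.262 without assembloid replicate 1 and 2. Between EC and L classes at a class fold of 3, which left out assembloid replicate 2, tissue gave 568 genes, 54 with DESeq2 and 518 without assembloid replicate 1. At a class fold of 2 with all 4 libraries, tissue gave 413 and 113 with DESeq2, and assembloids gave 130, then 14 with DESeq2, 210 without the filter on low counts and 56 to 178 without each library (56 without tissue replicate 1, 85 without assembloid replicate 2). The difference between groups gave 141, then 22 with DESeq2 and 28 to 200 without each library (28 and 85 without tissue replicates 1 and 2).

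Shares of marker-positive cells moved, in assembloid replicate 1, to 0.904% with 2 markers, 0.0572% with 4, 0.0679% with 2 independent genes, 0.811% by granin UMIs, 0.0608% without cells of other lineages and 0.0673% after thinning, and in replicate 2 to 1.59% with 2 markers, 0.244% without cells of other lineages and 0.395% after thinning. In tissue they moved to 1.55% and 3.66% with 2 markers, 1.90% and 2.52% with 1000 genes and 0 in both without cells of other lineages, and in tissue replicate 2 to 1.34% with 4 markers and 2.41% at 5% mitochondrial UMIs. Between assembloids and tissue, 3 values of named genes changed sign where either value was called: Sst, at 0.21 with all libraries and not called, was at -11.76 without assembloid replicate 2, -0.54 without tissue replicate 2, 1.24 without assembloid replicate 1 and 1.92 without tissue replicate 1, Sox4 at -0.96 with at most 5% mitochondrial UMIs, and the ratio of Gcg at 0.029 after thinning (adjusted p = 1). Between classes in assembloids, the EC over L value of Scg2 went from -1.13 to 0.25 without assembloid replicate 2, neither called. Of the other values recomputed for named genes between assembloids and tissue, 1385 kept their direction and side of the threshold, 20 changed sign with neither value called, 107 lost and 32 gained a call. The rule genes Chga, Chgb, Neurod1 and Insm1 are among these values, although their levels are only a description. The requirement of independent genes, the counts by granin UMIs and without cells of other lineages, the EC-only fit, the fits at a class fold of 2 beyond the first and the list counts under them were chosen after the data were seen. Not run were the removal of cells with other lineages' UMIs, which left 0 tissue cells, from the gene tests, the class fit at 5% mitochondrial UMIs, and leaving out a tissue library at a class fold of 3, which leaves no residual degrees of freedom.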
